A study of Homo sapiens with 24 samples.

Results

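The response to knock down of IRF4 was compared between 2 pairs of multiple myeloma cell lines, MM1R with MM1S and KMS-12-BM with KMS-12-PE. All 24 of the 24 libraries of the series entered the comparison, 12 from the MM1 lines and 12 from the KMS-12 lines. Each line had 3 libraries of cells electroporated with pooled siRNAs against IRF4 (siIRF4), which the labels put at 48 hours, and 3 libraries of control cells (CTRL), which the labels give as DMSO at 0 hours. No control siRNA is named, so knock down, delivery of siRNA, electroporation, DMSO and time cannot be told apart, and they were shared by all 4 lines. The effect of siIRF4 in a line was taken as siIRF4 minus CTRL on log2(TPM + 1), where TPM (a level per transcript length, scaled to the same sum in every library) is the unit of the deposited table. The quantity reported here is the difference of effects, the mean effect in MM1R and MM1S minus that of the lines KMS-12-BM and KMS-12-PE. A gene is called higher or lower when this difference was above or below 0 at a Benjamini-Hochberg adjusted p under 0.05 in limma. A gene called higher may have risen more in the MM1 lines, fallen less in them, or moved in opposite directions in the pairs.

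IRF4 is a transcription factor of plasma cells and myeloma cells, which binds DNA weakly alone and with partners at composite elements, and which myeloma cells need for survival. It drives genes of plasma cell identity and is known to act with MYC in a loop in which each gene activates the other. MM1R and MM1S are glucocorticoid-resistant and glucocorticoid-sensitive derivatives of 1 patient's line with a translocation that activates MAF, and KMS-12-BM and KMS-12-PE were grown from bone marrow and pleural effusion of another patient whose cells carry a translocation that activates the cyclin gene CCND1. Mean CTRL levels of MAF were 437.9 TPM in MM1R and 367.7 TPM in MM1S, against 1.785 TPM in KMS-12-BM and 3.612 TPM in KMS-12-PE. CCND1 stood at 620.4 TPM in KMS-12-BM CTRL and 496.7 TPM for KMS-12-PE, against 3.196 TPM in MM1R and 8.834 TPM in MM1S. Of the defining plasma cell markers, XBP1, TNFRSF17, CD38, PRDM1 and IRF4 stood above 12 TPM in all 24 libraries, and SDC1, which encodes syndecan-1, above 4.5 TPM, with its lowest level in KMS-12-BM.

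The 4 lines are 2 pairs of relatives. Tests over libraries measure the spread between libraries, which the labels do not call separate cultures, and an exact permutation of the lines, 2 against 2, allows no two-sided p below 0.333. Recovered totals were 17.3 to 27.4 M reads per library. Genes restricted to the other pair of lines were seen at a median of 0.106% to 1.18% of their level there, the lowest share being in KMS-12-PE siIRF4 (0.106% to 0.119%, against 0.694% to 1.14% in KMS-12-PE CTRL). In KMS-12-BM the share was 0.301% to 0.421% in CTRL and 1.06%, 0.585% and 0.353% in the siIRF4 libraries, with replicate 1 standing apart. A gene that is high in the MM1 lines can thus fall in KMS-12-PE, or rise in KMS-12-BM, by the size of this trace, and such genes are given with their values below.

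IRF4 itself was lower with siIRF4 in every line. The loss of its mean level was 23.5% and 50.4% for MM1R and MM1S, and 38.4% and 52.6% for the BM and PE lines of KMS-12. The siIRF4 libraries held 259.9, 299.4 and 313.6 TPM in MM1R and 154.3, 130.4 and 136.8 TPM in MM1S. They held 205.3, 220.6 and 241.1 TPM in KMS-12-BM and 154.1, 151.9 and 160.0 TPM in KMS-12-PE. The CTRL libraries of all 4 lines lay between 267.5 and 399.3 TPM, with no overlap within a line. The difference of effects for IRF4 was 0.19 ± 0.067 (SE; limma adjusted p = 0.0273), a smaller loss in the MM1 lines. It rested on MM1R: without that line it was -0.12, and without KMS-12-PE 0.000114. The pairs are therefore not separated by the size of the IRF4 loss, and the 2 lines of each pair differed in it, by 0.62 between the MM1 lines (adjusted p = 0.000908) and 0.37 between the KMS-12 lines (adjusted p = 0.0067).

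The difference of effects was called for 6792 of 15113 genes (44.9%), 3771 of them higher (25%) and 3021 lower (20%). Over all genes tested its median was 0.033. Differences of 1 or more on the log2 scale were 227 in number, 175 higher and 52 lower. The mean effect in the MM1 lines was called for 5067 genes higher (33.5%) and 3800 lower (25.1%), and in the KMS-12 lines for 2911 higher (19.3%) and 2590 lower (17.1%). Effects differed between MM1R and MM1S for 374 genes (2.47%) and between KMS-12-BM and KMS-12-PE for 3476 (23%). Across the genes tested, which are not independent replicates, the effects of MM1R and MM1S correlated at r = 0.722, those of KMS-12-BM and KMS-12-PE at 0.28, and those of lines from different pairs at 0.22 to 0.24. By this measure MM1R and MM1S moved alike, while the KMS-12 lines were little closer to each other than to the MM1 lines.

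Judged by the mean effect of each pair, most called differences were movements in the MM1 lines. The mean does not describe both KMS-12 lines. KMS-12-PE alone had 5764 genes with a called effect, 299 of them at 1 or more on the log2 scale. MM1R had 6980 and 243, MM1S 7596 and 300, but KMS-12-BM only 2650 and 49. A mean that did not pass can therefore hide a change in 1 line. Of the 6792 called genes, 2081 (30.6%) rose in the MM1 lines while their mean effect in the KMS-12 lines did not pass, and 1518 (22.3%) fell in the MM1 lines in the same way. The reverse, a change in the KMS-12 lines while the MM1 mean did not pass, held for 507 genes that rose and 498 that fell. Opposite directions, each passing its test, were found for 407 genes that rose in the MM1 lines and fell in the KMS-12 lines (5.99%) and for 366 that fell and rose (5.39%). A further 684 rose in both pairs and 574 fell in both, by different amounts. The effects of both MM1 lines lay on the same side of the effects of both KMS-12 lines for 6000 called genes (88.3%). The share was 55.3% for all genes tested, but a call and the side come from the same line effects, which raises the share among called genes. For 2115 of the 6000 all 4 line-by-line differences were called as well. In the plot of the mean effects the called genes spread along the MM1 axis more than along the KMS-12 axis.

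**Figure D1:**
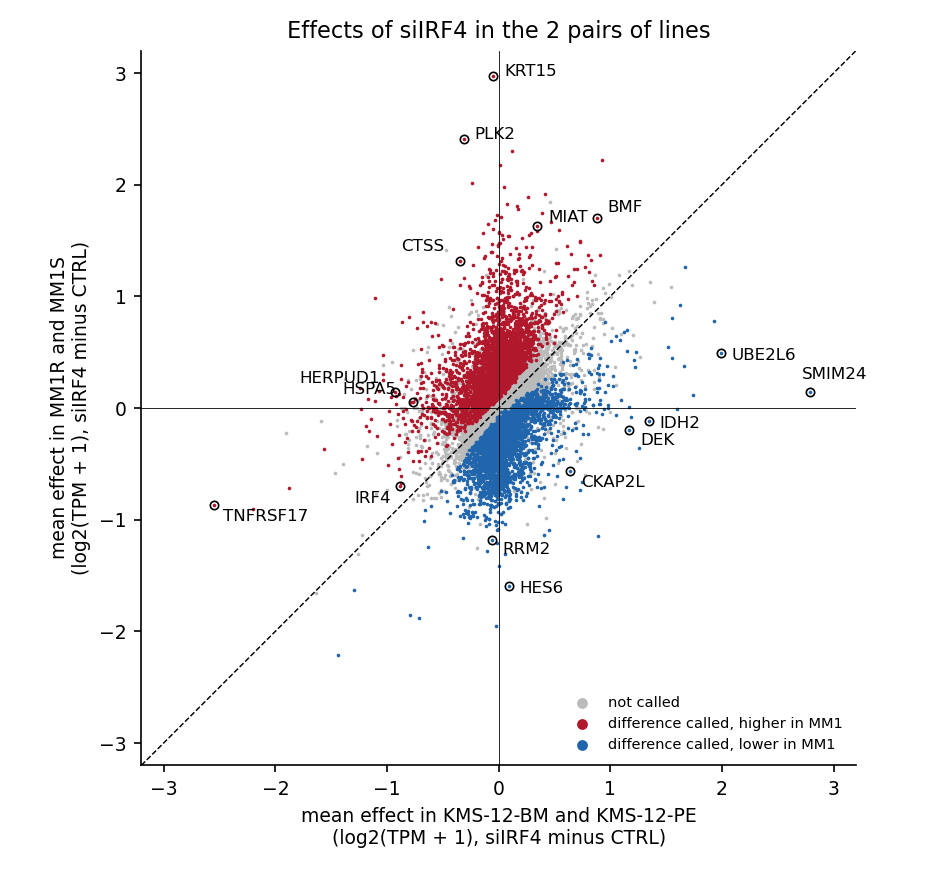
Mean effect of siIRF4 on log2(TPM + 1) in the MM1 lines (vertical axis) against the KMS-12 lines (horizontal axis), 1 point per gene for 15113 genes, with the dashed line marking equal effects. Red and blue points are the 3771 and 3021 genes called higher and lower. TNFRSF17 and IRF4 fell in both pairs, whereas RRM2 and HES6 lie far below 0 in the MM1 lines and near 0 in the KMS-12 lines.

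Among called genes that placed both MM1 lines on the same side of both KMS-12 lines and reached 5 TPM in the higher condition of every line, the 12 with the highest difference were TNFRSF17 (1.68), CRYBB1 (1.67), CTSS (1.66), SATB1 (1.65), ITGB7 (1.42), MIAT (1.28), HSF4 (1.27), RASGRP3 (1.24), CCR2 (1.20), PIK3IP1 (1.19), TMEM63B (1.18) and TXNDC5 (1.17). They reached that rank by different routes. TNFRSF17 (the gene of BCMA, a receptor through which plasma cells receive survival signals) fell in all 4 lines and most in the KMS-12 lines. MIAT, a long non-coding RNA, rose in both pairs, from 114.6, 110.1 and 120.6 to 403.1, 358.2 and 335.1 TPM in MM1R and from 5.900, 5.864 and 5.889 to 9.295, 7.912 and 8.410 TPM in KMS-12-PE. SATB1, a chromatin organizer of lymphocytes, went from a mean of 5.136 to 21.65 TPM in MM1R and from 3.587 to 14.30 TPM in MM1S. Its KMS-12-PE means were 26.05 TPM without and 23.53 TPM with siIRF4. RASGRP3, an activator of RAS, went from 58.32 to 108.1 TPM in MM1R and from 23.56 to 10.54 TPM in KMS-12-BM. For TXNDC5, a disulfide isomerase, the MM1 lines differed, with effects of -1.38 in MM1R and -0.05 in MM1S against -1.75 and -2.00 in the KMS-12 lines (difference 1.17 ± 0.345, SE, limma adjusted p = 0.0108).

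The 12 with the lowest difference were HES6 (-1.69), UBE2L6 (-1.50), IDH2 (-1.47), DEK (-1.37), GFI1 (-1.24), CKAP2L (-1.20), RRM2 (-1.12), CCL5 (-1.10), APOBEC3B (-1.09), CAV2 (-1.06), HMCES (-1.06) and PAQR4 (-1.05). HES6, a helix-loop-helix factor, fell from 199.1, 213.2 and 206.4 TPM to 67.54, 72.91 and 76.52 TPM in MM1R and from 307.6, 278.8 and 335.7 to 99.30, 85.00 and 98.65 TPM in MM1S. In KMS-12-PE it was as high, at 229.3, 244.9 and 207.2 TPM in CTRL, and stayed at 205.0, 236.8 and 224.1 TPM with siIRF4, with overlap of the groups. DEK, a chromatin protein abundant in dividing cells, gave the opposite picture. It rose in the KMS-12 lines, from 120.1, 126.7 and 115.9 to 293.8, 252.2 and 254.9 TPM in KMS-12-BM and from 162.3, 162.1 and 174.3 to 388.2, 384.7 and 384.6 TPM in KMS-12-PE. In the MM1 lines DEK moved from a mean of 217.0 to 171.9 TPM in MM1R and from 227.9 to 218.0 TPM in MM1S (difference -1.37 ± 0.052, adjusted p = 1.1e-13). IDH2, the mitochondrial isocitrate dehydrogenase, rose in KMS-12-BM from 7.572, 8.568 and 6.405 to 19.33, 17.99 and 13.32 TPM and in KMS-12-PE from 9.924, 9.895 and 8.817 to 34.00, 28.70 and 32.36 TPM, with 448.6 to 507.8 TPM as mean CTRL levels in the MM1 lines. The trace of MM1 transcripts was lower in KMS-12-PE siIRF4 and reached 1.06% and 0.585% in KMS-12-BM siIRF4 replicates 1 and 2, where IDH2 was highest of that line, and its part in the result was not tested.

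Genes of the cell cycle gave the most uniform difference. All 67 mitosis and G2/M genes and all 50 DNA replication and G1/S genes were called lower, against 20% of all genes, and each of them placed both MM1 lines below both KMS-12 lines. The median effect of the G2/M genes was -0.72 and -0.62 for MM1R and MM1S, against 0.088 for KMS-12-BM and 0.0042 for KMS-12-PE, a median difference of -0.73 against 0.033 for all genes. All 67 fell in the MM1 lines, against 25.1% of all genes. In the KMS-12 lines 16 rose and 4 fell, against 19.3% and 17.1% of all genes. The replication genes had medians of -0.70 and -0.80 in the MM1 lines and -0.034 and -0.076 in the KMS-12 lines, with 50 that fell in the MM1 lines and 14 that fell and 2 that rose in the KMS-12 lines. Homologous recombination and Fanconi genes followed, with 27 of 29 lower (median difference -0.59), among them FANCG (-0.80) and the helicase genes BRIP1 (-0.77) and BLM (-0.72), while the checkpoint kinase genes ATM (0.08) and ATR (0.11) were not called. Of the MM1 lines, MM1R had the larger G2/M fall by its median. MM1S had the larger fall of the replication list and of the recombination list (-0.66, against -0.56 in MM1R).

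RRM2, the regulatory subunit of ribonucleotide reductase, had the lowest difference of the replication list. In MM1R it went from 808.2, 796.8 and 824.3 TPM to 314.4, 374.4 and 415.2 TPM, and in MM1S from 742.1, 759.4 and 713.0 to 341.4, 308.5 and 304.8 TPM. In KMS-12-BM it was at 140.1, 144.6 and 135.4 TPM in CTRL and 145.7, 140.3 and 147.3 TPM in siIRF4, and in KMS-12-PE at 160.6, 165.6 and 165.3 and then 143.3, 147.6 and 148.1 TPM. The MM1 groups were far apart, and even their siIRF4 libraries lay above every KMS-12 library (difference -1.12 ± 0.063, adjusted p = 2.66e-11). BUB1, a mitotic checkpoint kinase, went from 230.1, 217.4 and 224.1 to 120.1, 135.4 and 138.1 TPM in MM1R, and from 100.1, 103.8 and 99.02 to 120.3, 117.9 and 114.8 TPM in KMS-12-BM (difference -0.92 ± 0.048, adjusted p = 1.21e-11). Its mean effect in the KMS-12 lines passed as a rise (adjusted p = 0.00137), with overlapping groups in KMS-12-PE. CKS2, a subunit of cyclin-dependent kinases, rose in KMS-12-PE from 1021, 987.0 and 1051 to 1335, 1259 and 1232 TPM, and fell in MM1S from 502.3, 488.9 and 510.3 to 337.6, 348.2 and 317.8 TPM (difference -0.75 ± 0.04, adjusted p = 1.25e-11). CKAP2L, a spindle protein gene, fell in MM1R from 43.62, 40.64 and 41.16 to 24.83, 25.92 and 27.97 TPM and rose in KMS-12-PE from 34.09, 35.04 and 37.06 to 67.58, 58.15 and 64.58 TPM.

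Regulators of the cycle were less uniform than its machinery. Among 22 D cyclins, CDK4/6, their inhibitors, E2F and RB family genes 11 were lower and 3 higher, against 20% and 25% of all genes. The activating kinase CDK2 fell from 91.56, 97.73 and 92.70 to 49.06, 54.29 and 59.91 TPM in MM1R and in KMS-12-PE held 134.6, 136.6 and 135.7 TPM before and 158.3, 153.2 and 153.4 TPM with siIRF4 (difference -0.87 ± 0.048, adjusted p = 1.84e-11). The repressors E2F7 (-0.91) and E2F8 (-0.82), themselves genes of dividing cells, CCND3 (-0.56), CDK4 (-0.35) and CDK6 (-0.25) were lower as well. CDK6 also fell in KMS-12-PE, from 68.94, 64.71 and 57.07 to 48.44, 41.59 and 44.59 TPM. In KMS-12-BM its groups overlapped. The inhibitor genes gave no common direction: CDKN1C (-0.74) and CDKN2D (-0.43) were called lower and CDKN2B (0.34) higher. CDKN1A (0.09), which encodes p21, CDKN1B (-0.04) and CDKN2A (-0.16) were not called. CCND1, the translocated cyclin of the KMS-12 lines, stood at 633.7 and 479.5 TPM with siIRF4 in these lines, with a difference of -0.13 ± 0.30 (adjusted p = 0.757).

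Promoters of 2 of these genes show the elements through which cell cycle genes are known to be controlled, the CCAAT box bound by NF-Y and the CHR bound by the MuvB complexes. The stretches are 150 bases of each promoter from RefSeq (GRCh38.p14), CKS2 at chr9:89311045-89311194 on the plus strand and RRM2 at chr2:10122589-10122738 on the plus strand, with the CHR in capitals in CKS2 and the CCAAT boxes in capitals in RRM2.
CKS2: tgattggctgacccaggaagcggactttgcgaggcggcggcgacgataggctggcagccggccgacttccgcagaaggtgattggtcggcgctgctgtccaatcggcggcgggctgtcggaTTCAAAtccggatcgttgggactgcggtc
RRM2: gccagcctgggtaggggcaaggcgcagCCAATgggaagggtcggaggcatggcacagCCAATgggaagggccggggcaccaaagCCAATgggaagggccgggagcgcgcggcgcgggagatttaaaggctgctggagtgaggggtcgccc
The CHR of CKS2, on the minus strand of the gene, has its left end 29 bases before the start, and the CCAAT boxes of RRM2 begin 123, 93 and 66 bases before it. Searched on both strands of 250 bases before to 50 after the start, TTTGAA was found in 39 of 57 promoters of the G2/M list (68.4%) and 1 of 43 of the replication list (2.33%), against 15.4% of all 27305 promoters of the table. CCAAT was found in 70.2% and 53.5% of these lists against 35.7%. The E2F sites TTTGGCGC and TTTCCCGC were found in 20.9% and 25.6% of the replication list, in 3.51% and 3.51% of the G2/M list, and in 0.659% and 1.66% of all promoters. These matches describe the lists and were not tested against the data.

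**Figure D2:**
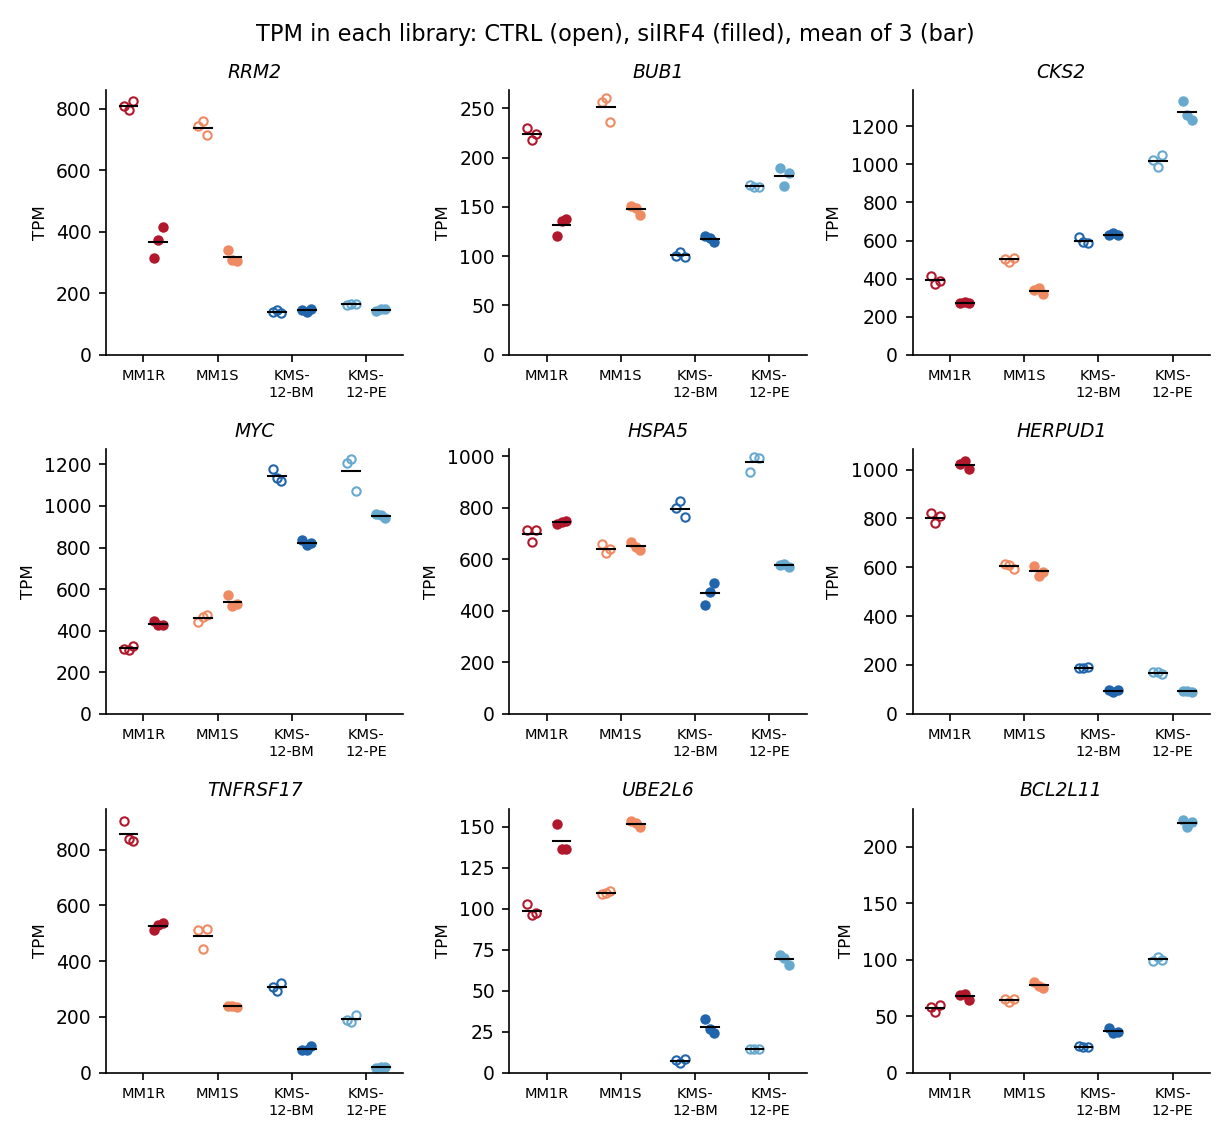
TPM of 9 genes in each of the 24 libraries, with open points for CTRL, filled points for siIRF4 and a bar at the mean of 3 libraries. RRM2, BUB1 and CKS2 drop far in the MM1 lines, with RRM2 slightly lower in KMS-12-PE as well, HSPA5 drops in the KMS-12 lines alone, MYC rises in the MM1 lines and drops in the KMS-12 lines, and BCL2L11 is highest in KMS-12-PE with siIRF4 (217.6 to 223.6 TPM).

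Genes of protein folding in the endoplasmic reticulum, on which antibody-secreting cells depend, gave a difference in the other direction. Of 36 ER folding and unfolded protein response genes 29 were called higher and 1 lower, against 25% and 20% of all genes, and the median difference was 0.34. Here the movement was in the KMS-12 lines, where 30 of the 36 fell and 0 rose, with a median of -0.19 for KMS-12-BM and -0.29 for KMS-12-PE. In the MM1 lines 15 fell and 10 rose, with medians of 0.0089 and -0.059. Of all genes, 17.1% fell and 19.3% rose in the KMS-12 lines, and 25.1% fell and 33.5% rose in the MM1 lines. In each siIRF4 library the median over the list lay between -0.347 and -0.200 below the CTRL mean in the KMS-12 lines and between -0.100 and 0.026 in the MM1 lines, so the pairs did not overlap. The count stayed between 24 and 30 under 36 alternative settings.

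HSPA5, which encodes the main ER chaperone BiP, fell from 800.2, 825.7 and 762.8 to 422.9, 471.5 and 509.3 TPM in KMS-12-BM and from 940.5, 998.3 and 995.7 to 577.5, 581.4 and 570.0 TPM in KMS-12-PE. In MM1R it was at 714.2, 667.5 and 714.2 TPM and then 738.4, 743.9 and 749.9 TPM, and in MM1S at 660.1, 626.5 and 640.0 and then 667.9, 646.3 and 638.3 TPM. Its mean effect in the MM1 lines did not pass (adjusted p = 0.168), and the difference was 0.82 ± 0.047 (adjusted p = 3.26e-11). HERPUD1, a factor of ER-associated degradation, had the largest difference of the list (1.07 ± 0.036, adjusted p = 2.36e-14). It fell in KMS-12-BM from 185.4, 186.3 and 190.4 to 96.00, 89.14 and 97.07 TPM and in KMS-12-PE from 170.5, 172.2 and 161.7 to 94.11, 92.88 and 89.16 TPM, and it rose in MM1R from 821.6, 780.7 and 809.0 to 1021, 1035 and 1004 TPM. The MM1S libraries overlapped between groups at 565.3 to 611.5 TPM. The chaperone and oxidoreductase genes CALR (0.40), PDIA4 (0.56), HSP90B1 (0.57), HYOU1 (0.57), MANF (0.57) and DNAJB9 (0.61) were higher too, as were the sensor genes ERN1 (0.56), EIF2AK3 (0.52) and ATF6 (0.14). SPCS2, a subunit of the signal peptidase, was the gene called lower (-0.32). XBP1, the plasma cell transcription factor of this program, had a difference of 0.17 ± 0.026 (adjusted p = 1.58e-05), with KMS-12-BM at -0.43 and the other lines between -0.12 and -0.07.

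The element known to bind the ATF6 factor with NF-Y, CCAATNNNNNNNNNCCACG, can be read in the promoters of HSPA5 and CALR. The stretches shown are 150 bases each (RefSeq, GRCh38.p14), HSPA5 at chr9:125241344-125241493 on the minus strand and CALR at chr19:12938364-12938513 on the plus strand, with the element in capitals.
HSPA5: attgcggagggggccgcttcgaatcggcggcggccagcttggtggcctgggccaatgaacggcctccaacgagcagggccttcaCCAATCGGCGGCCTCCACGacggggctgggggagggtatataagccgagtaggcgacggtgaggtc
CALR: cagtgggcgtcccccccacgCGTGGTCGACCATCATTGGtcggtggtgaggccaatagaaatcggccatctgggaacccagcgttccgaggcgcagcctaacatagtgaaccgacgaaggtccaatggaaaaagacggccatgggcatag
In HSPA5 it begins 66 bases before the start, and in CALR, where it reads on the other strand, its left end lies 225 bases before the start. It was found in 6 of 32 promoters of the list (18.8%) and in 22 of 27305 promoters of the table (0.0806%). The other 4 were CANX, CRELD2, ERO1LB and HSP90B1. All 6 genes were among the 29 called higher, but so were 25 of the 32 genes with a promoter. HERPUD1, with the largest difference of the list, showed no match in this window. This element was added to the search after the values had been seen.

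The ribosome, the proteasome and cytosolic chaperones differed by smaller amounts. The counts below stand against 25% higher and 20% lower for all genes. Rises stand against 33.5% of all genes in the MM1 and 19.3% in the KMS-12 lines, and falls against 25.1% and 17.1%. Of 52 cytosolic ribosomal protein genes 34 were higher and 1, RPL35, lower, with a median difference of 0.14: 49 of them rose in the MM1 lines and 27 in the KMS-12 lines. That count was 17 without KMS-12-BM and 21 without MM1R. Of 31 proteasome genes 26 were lower and 0 higher (median -0.18), with all 31 that fell in the MM1 lines and 21 that fell in the KMS-12 lines. PSMC3 (-0.40), a subunit of the proteasome base, PSMD14 (-0.33), its deubiquitinase, and PSMB6 (-0.32), a catalytic subunit, led this list. Of 19 heat shock genes 12 were lower (median -0.20), or 7 without MM1S, with DNAJB1 at -0.50 and HSP90AA1 at -0.43. Ribosome biogenesis genes did not set the pairs apart: 8 of 42 were higher and 9 lower, with medians of -0.16 in the MM1 and -0.17 in the KMS-12 lines.

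**Figure D3:**
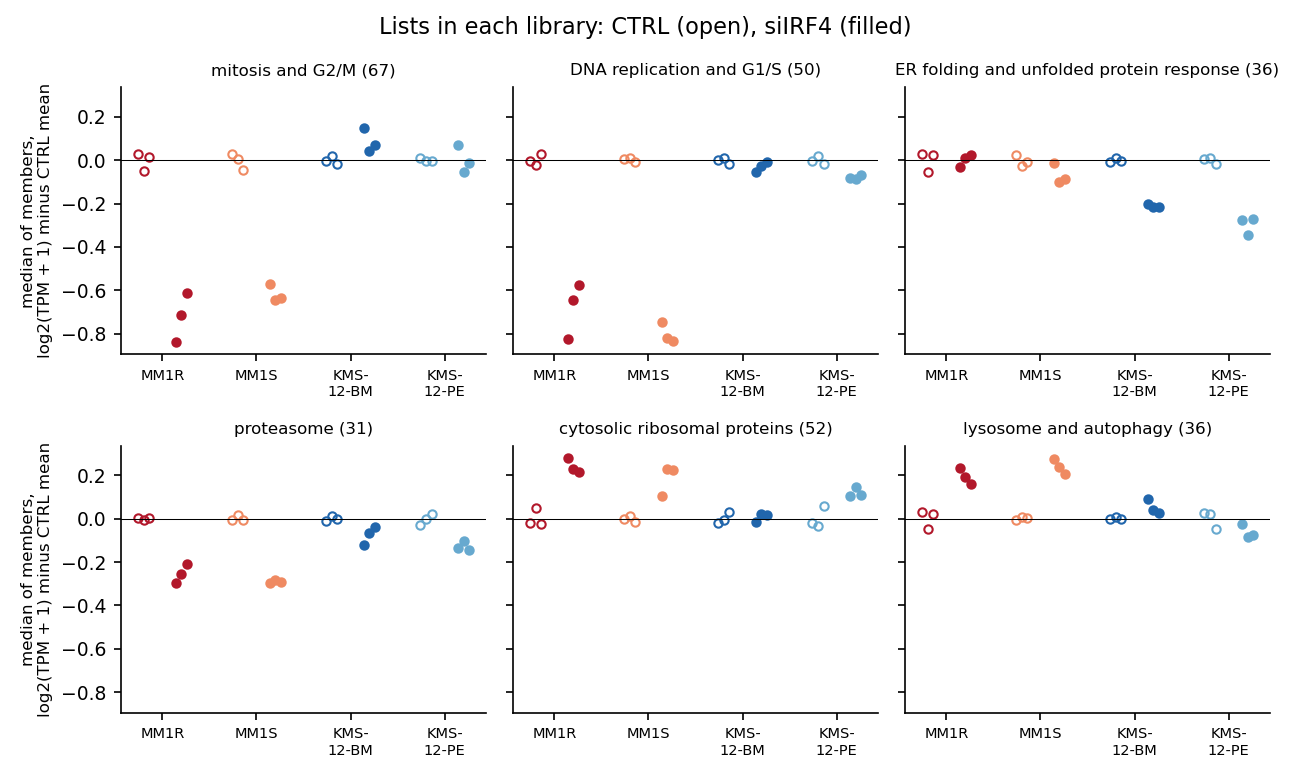
Median over the members of 6 gene lists of log2(TPM + 1) minus the mean of the line's CTRL libraries, 1 point per library, open for CTRL and filled for siIRF4. For mitosis and G2/M genes the 6 MM1 siIRF4 libraries lie between -0.839 and -0.573 and the 6 KMS-12 ones between -0.056 and 0.146.

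MYC, the growth regulator tied to IRF4 in myeloma, moved in opposite directions. In MM1R it rose from 309.5, 308.8 and 325.2 to 447.5, 428.0 and 425.3 TPM and in MM1S from 440.1, 466.9 and 475.0 to 571.2, 517.5 and 529.1 TPM. In KMS-12-BM it fell from 1176, 1135 and 1121 to 833.9, 810.4 and 823.7 TPM and in KMS-12-PE from 1205, 1226 and 1074 to 961.6, 957.9 and 941.5 TPM. The groups did not overlap in any line, and the KMS-12 libraries remained above all MM1 libraries after these changes (difference 0.73 ± 0.044, adjusted p = 5.53e-11). Of the 12 tested genes of the MYC and MAX network 8 were higher and 2 lower, against 25% and 20% of all genes. The partner MAX (0.28) and the repressor partners MXI1 (0.49), MXD4 (0.54), MXD1 (0.25) and MGA (0.25) were higher, rising in the MM1 lines. MXD3, a member of the same MXD family that is known to be expressed in S phase, was lower (-1.04 ± 0.098, adjusted p = 2.32e-08). It fell in MM1R from 45.73, 53.29 and 49.11 to 29.07, 34.05 and 36.68 TPM and rose in KMS-12-BM from 6.820, 6.961 and 7.026 to 14.77, 12.59 and 10.78 TPM.

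Regulators of apoptosis moved in both directions. Among 11 pro-apoptotic BCL2 family genes 5 were higher and 4 lower, and among 10 anti-apoptotic genes 5 were higher and 1 lower, against 25% and 20% of all genes. BMF, a BH3-only gene, rose in MM1R from 53.38, 51.49 and 52.35 to 165.3, 149.4 and 142.6 TPM, in MM1S from 39.74, 44.28 and 40.76 to 163.1, 155.4 and 151.2 TPM and in KMS-12-PE from 3.451, 2.831 and 2.939 to 11.79, 9.751 and 10.24 TPM. In KMS-12-BM it was at 19.77, 18.65 and 19.00 TPM in CTRL and 29.01, 21.14 and 20.02 TPM in siIRF4, 2 groups that did not overlap, with an effect of 0.26 against 1.51 in KMS-12-PE (difference 0.82 ± 0.096, adjusted p = 5.64e-07). BBC3, which encodes PUMA, was higher (0.67 ± 0.11, adjusted p = 2.94e-05), as were BNIP3L (0.54), HRK (0.59) and BAX (0.13).

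BCL2L11, which encodes the BH3-only protein BIM, was lower (-0.65 ± 0.045, adjusted p = 3.67e-10), since it rose more in the KMS-12 lines. It went from 23.31, 23.22 and 22.43 to 39.64, 35.11 and 36.40 TPM in KMS-12-BM and from 98.67, 102.8 and 100 to 223.6, 217.6 and 221.4 TPM in KMS-12-PE, against 58.49, 53.81 and 60.16 to 68.99, 69.48 and 64.44 TPM in MM1R. PMAIP1 (-0.44), which encodes NOXA, BAD (-0.25) and BID (-0.22) were lower as well. BCL2, the target of venetoclax, rose in the MM1 lines and fell in the KMS-12 lines (difference 0.45 ± 0.054, adjusted p = 7.37e-07). It went from 36.17, 32.49 and 34.11 to 40.49, 38.51 and 37.17 TPM in MM1R and from 196.6, 193.2 and 181.3 to 172.4, 156.0 and 165.0 TPM in KMS-12-PE, with no overlap in either line. CFLAR (0.56), the caspase-8 inhibitor, MCL1 (0.29) and BCL2A1 (0.71) were higher, BCL2A1 at means of 0 to 2.444 TPM, and BIRC5 (-0.76), a gene of mitosis as well, was lower.

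**Figure D4:**
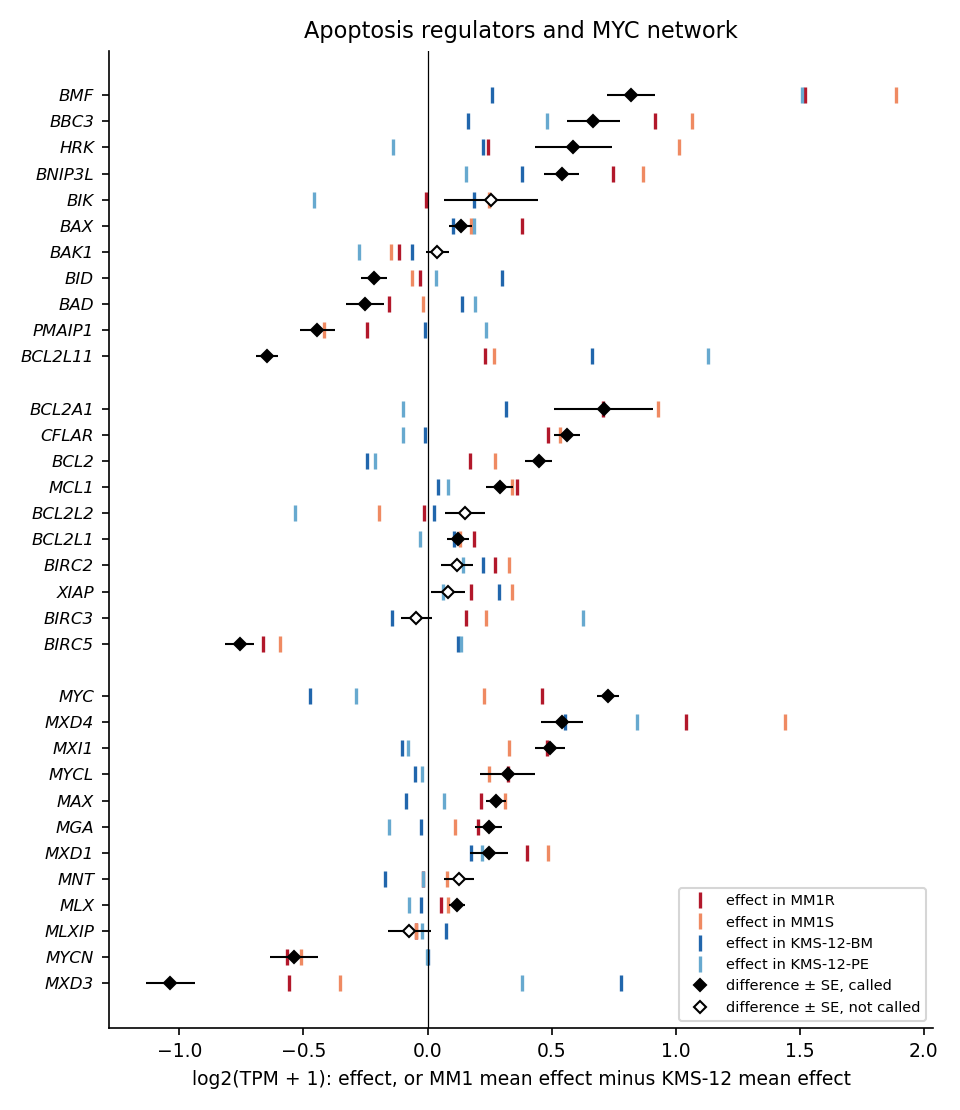
Effects of siIRF4 in each line (coloured ticks) and the difference of effects, MM1 minus KMS-12, with its SE (diamonds, filled where called) for pro-apoptotic BCL2 family genes, anti-apoptotic genes and the MYC network, on the log2(TPM + 1) scale. The diamonds run from BMF (0.82) to BCL2L11 (-0.65) in the upper group, and MYC (0.73) and MXD3 (-1.04) mark the ends of the lower group.

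Of 28 p53 target genes 15 were higher and 6 lower, against 25% and 20% of all genes. Without KMS-12-PE 7 were higher, a share like that of all genes. PLK2, a polo-like kinase, rose from 10.62, 10.43 and 10.11 to 78.96, 66.71 and 65.65 TPM in MM1R and from 13.44, 11.48 and 12.32 to 60.98, 60.78 and 55.91 TPM in MM1S (difference 2.72 ± 0.099, adjusted p = 7.49e-14). It stood below 1.5 TPM in all KMS-12 libraries. ZMAT3 (1.07), RRM2B (0.67), the p53-induced ribonucleotide reductase subunit, and the death receptor gene TNFRSF10B (0.44) were higher, while DDB2 (-0.38), FAS (-0.34) and GADD45A (-0.31) were lower. CDKN1A was not called.

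Lysosome and autophagy genes were higher in 23 of 36 and lower in 2, GLA (-0.65) and SQSTM1 (-0.12), with a median difference of 0.21. Shares over all genes were 25% higher and 20% lower. In the MM1 lines 26 rose and 2 fell, against 33.5% and 25.1% of all genes. In the KMS-12 lines 10 rose and 11 fell, against 19.3% and 17.1%. Without KMS-12-PE 15 were called higher. CTSS, which encodes the protease cathepsin S of antigen processing, rose in MM1R from 15.84, 13.01 and 14.67 to 46.14, 38.18 and 38.95 TPM and in MM1S from 30.90, 31.69 and 28.64 to 68.70, 74.21 and 69.03 TPM. In KMS-12-PE it fell from 37.23, 35.83 and 38.48 to 26.51, 23.70 and 23.73 TPM, and in KMS-12-BM the groups overlapped at 41.80 to 48.29 TPM (difference 1.66 ± 0.071, adjusted p = 5.77e-13). CTSZ, another cathepsin gene, rose from 50.38, 47.56 and 50.94 to 134.9, 114.8 and 113.0 TPM in MM1R and, by less, from 245.9, 231.6 and 222.2 to 297.5, 300 and 289.6 TPM in KMS-12-BM. It stood at 128.0 to 145.1 TPM in all KMS-12-PE libraries (difference 1.16 ± 0.057). The autophagy kinase gene ULK1 (0.81) and GABARAPL1 (0.61), a gene of the autophagosome, were also higher.

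Interferon-stimulated genes rose in both pairs, 33 of 42 tested in the MM1 and 25 in the KMS-12 lines, against 33.5% and 19.3% of all genes. The difference of effects was called in both directions. Of the 42, 19 were higher and 8 lower, against 25% and 20% of all genes. The share called lower was thus near that of all genes. Those higher included IFI44 (1.52), DDX60L (1.47), DDX60 (1.46), PARP9 (1.28) and OAS1 (0.82). DDX60L, a helicase gene, went from 0.618, 0.3639 and 0.509 to 3.605, 2.652 and 2.828 TPM in MM1R and from 0.5206, 0.4588 and 0.4063 to 3.303, 3.096 and 3.231 TPM in MM1S, and was listed below 0.1 TPM in every KMS-12 library. Some of those called higher were low: with a mean of at least 5 TPM asked for, 11 of them were tested and called higher. With voom on the recovered reads, 10 genes of the list were called higher. UBE2L6, the conjugating enzyme of ISG15, led those called lower. It rose in KMS-12-BM from 8.063, 5.888 and 8.089 to 32.78, 26.52 and 24.14 TPM and in KMS-12-PE from 14.25, 14.20 and 14.54 to 71.59, 69.80 and 65.93 TPM, and in MM1S from 109.0, 109.8 and 110.7 to 153.7, 152.1 and 149.8 TPM (difference -1.50 ± 0.091, adjusted p = 7.19e-11). Its KMS-12 libraries with siIRF4 were still below all MM1 CTRL libraries. IFITM1 (-1.14), USP18 (-0.78), PARP12 (-0.71) and IFI35 (-0.59) were lower too. IFITM1, IFITM2 and IFITM3 are similar copies between which reads may be split, so their separate values are uncertain.

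The interferon-stimulated response element, GAAANNGAAA, was found in 25 of 35 promoters of this list (71.4%) and in 3.65% of all promoters of the table. DDX60L, which was called higher, holds 2 of them, shown in capitals in the 150 bases chr4:168480493-168480642 on the minus strand (RefSeq, GRCh38.p14).
DDX60L: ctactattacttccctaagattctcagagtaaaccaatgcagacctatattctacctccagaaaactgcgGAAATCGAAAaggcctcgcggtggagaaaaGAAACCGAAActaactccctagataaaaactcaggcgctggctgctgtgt
They begin 80 and 50 bases before the start. PARP12, called lower, also holds the element, so its presence in this window does not separate genes called higher from genes called lower. The composite element of ETS factors and IRF4, GGAANNGAAA, was found in 8 of the 35 (22.9%), a motif that shares letters with the response element, and in 2.84% of all promoters.

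Among the other IRF genes and their cofactors 3 of 10 were higher and 3 lower, which is close to the 25% and 20% of all genes. IRF9 (0.54), a subunit of the interferon-activated factor ISGF3, rose from a mean of 22.09 to 37.65 TPM in MM1R while KMS-12-PE held 6.348 TPM in CTRL and 7.029 TPM in siIRF4. IRF3 (0.30) and IRF2BP2 (0.26) were higher as well. IRF1 was lower (-0.30), since it rose more in the KMS-12 lines, from a mean of 6.250 to 12.51 TPM in KMS-12-BM against 69.29 to 100.3 TPM in MM1R, and IRF8 (-0.33) and IRF2BPL (-0.17) were lower. IRF8 rested on KMS-12-PE, without which its difference was 0.019, and IRF2BPL on MM1R, without which it was 0.012.

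Plasma cell genes fell in both pairs, 13 of 21 in the MM1 and 15 in the KMS-12 lines, against 25.1% and 17.1% of all genes. The difference was called higher for 12 and lower for 1, against 25% and 20% of all genes. TNFRSF17 went from 902.7, 836.7 and 832.2 to 511.7, 529.0 and 537.4 TPM in MM1R and from 510.5, 444.2 and 515.0 to 239.5, 240.8 and 237.1 TPM in MM1S. In KMS-12-BM it went from 308.2, 294.0 and 323.3 to 81.72, 79.96 and 95.73 TPM, and in KMS-12-PE from 189.6, 182.7 and 208.1 to 18.22, 19.49 and 20.28 TPM. No groups overlapped, and the fall grew from line to line in that order (difference 1.68 ± 0.065, adjusted p = 1.1e-13). AMPD1, an AMP deaminase gene of plasma cells, followed the same order, from 23.20, 23.70 and 25.70 to 12.90, 12.31 and 13.88 TPM in MM1R and from 17.22, 15.59 and 17.29 to 1.360, 1.161 and 1.250 TPM in KMS-12-PE (difference 1.30 ± 0.095, adjusted p = 5.75e-10). The elongation factor gene ELL2 (0.65), the kinase gene PIM2 (0.56), the Ikaros family gene IKZF3 (0.67) and PRDM1 (0.23) were higher. GPRC5D, the orphan receptor that is a target of antibodies in myeloma, was the plasma cell gene called lower (-1.16 ± 0.20, adjusted p = 0.000123), from a mean of 331.6 to 100.2 TPM in MM1R against 7.233 to 2.914 TPM in KMS-12-PE. KLF2 (-0.02 ± 0.15) and CAV1 (-0.05 ± 0.075), which fell by over 1 on the log2 scale in all 4 lines, did not pass for a difference (adjusted p = 0.921 and 0.637).

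Of 16 genes linked to IRF4 in myeloma 11 were higher and 2, CDK6 and SUB1, lower (7 higher without KMS-12-PE). Both CDK6 and SUB1 fell in KMS-12-PE too. Shares over all genes, for this list and the next 2, were 25% higher and 20% lower. Besides MYC, the regulators KLF13 (0.66) and ZEB1 (0.68) moved in opposite directions or in the MM1 lines alone. KLF13 went from a mean of 146.8 to 186.9 TPM in MM1R and from 135.5 to 107.1 TPM in KMS-12-BM. BCL6 (1.17 ± 0.12), the germinal centre repressor, went from 0.392 to 2.518 TPM in MM1R and from 0.678 to 2.009 TPM in MM1S and was at or below 0.4515 TPM in every KMS-12 library. For POU2AF1 the difference of 0.76 rested on KMS-12-PE, without which it was -0.00389. B cell genes gave 8 higher and 3 lower of 16, the lower share being near that of all genes. BTK (0.82), BCL11A (0.80) and BLNK (0.76) were higher and CIITA (-0.68), SPIB (-0.64) and SYK (-0.57) lower. MHC class II genes gave 7 lower and 1 higher of 13, but only CIITA placed both MM1 lines below both KMS-12 lines, and without KMS-12-PE 1 was called lower.

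Some differences concern genes that 1 pair did not express. Among genes under 1 TPM in all groups of the KMS-12 lines and at 5 TPM or more in both MM1 lines, KRT15 had the highest difference (3.02 ± 0.18, adjusted p = 1.34e-10). This keratin gene rose in MM1R from 18.06, 22.24 and 18.58 to 186.3, 156.7 and 151.8 TPM and in MM1S from 8.477, 12.23 and 9.338 to 83.30, 85.62 and 77.84 TPM. SCNN1G (2.26), CX3CR1 (2.16), C3AR1 (1.76) and DDIT4L (1.75) followed, and CYP26A1 (-1.93), the retinoic acid hydroxylase, ST8SIA2 (-1.42) and C3orf52 (-1.37) fell in the MM1 lines. CYP26A1 went from 41.27, 41.29 and 39.30 to 9.536, 13.25 and 12.55 TPM in MM1R. Among genes that the MM1 lines did not express, SMIM24 (-2.64 ± 0.14, adjusted p = 1.21e-11) rose in KMS-12-BM from 6.168, 7.331 and 7.510 to 36.78, 31.27 and 30.66 TPM and in KMS-12-PE from 0.3538, 0.3633 and 0.5813 to 17.63, 13.40 and 14.47 TPM. LCK (-1.60), a SRC family kinase gene best known from T cells, rose in KMS-12-PE from 2.491, 1.328 and 1.606 to 11.40, 9.395 and 9.825 TPM. For such genes the difference is the response of the pair that expresses them.

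Genes that are high in the MM1 lines and present in the KMS-12 lines as a trace need their levels beside them. Of 959 tested genes below 2% of the other pair's level 453 were called. ITGB7, an integrin gene driven by MAF, was at 15570, 14930 and 15530 TPM in MM1R CTRL. The CTRL libraries of KMS-12-PE held 55.62, 53.70 and 75.64 TPM, and its difference of 1.42 came from KMS-12-PE siIRF4 (10.11, 8.990 and 10.60 TPM). In MM1R it went to 18300, 17870 and 17630 TPM, and its mean effect in the MM1 lines did not pass (adjusted p = 0.47). CRYBB1, a crystallin gene, rose in the MM1 lines, from 566.9, 597.6 and 557.8 to 1263, 1182 and 1178 TPM in MM1R, and went from 4.069, 5.134 and 6.878 to 1.269, 0.3914 and 0.871 TPM in KMS-12-PE. MAF itself (1.62 ± 0.27) rose in the MM1 lines by 0.72 and 0.92 and had an effect of -1.93 in KMS-12-PE at 3.612 TPM. In KMS-12-BM siIRF4 replicate 1 stood apart from replicates 2 and 3 in ITGB7 (186 against 64.11 and 58.12 TPM), CRYBB1 (15 against 10.19 and 8.685 TPM) and MAF (5.731 against 1.382 and 1.601 TPM). In all 3 the fall in KMS-12-PE moves with the fall of the trace given above, and the part of admixture in it was not tested. In the list of MAF and its targets, which counts MAF itself, 7 of 10 tested genes were higher and 2 lower, against 25% and 20% of all genes. Calls for 6302 genes (92.8%) remained in the same direction when genes under 2% of the other pair's level were left out. The 453 called genes left out could not remain, so this share does not measure the part of the trace in the other calls.

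Metabolic lists differed among themselves. Their counts stand against 20% lower and 25% higher for all genes. Falls within a pair stand against 25.1% of all genes in the MM1 and 17.1% in the KMS-12 lines. Of 25 cholesterol synthesis genes 12 were lower and 0 higher, among them EBP (-0.60) and the regulator SREBF1 (-0.47), and 21 fell in the MM1 and 17 in the KMS-12 lines. Of 24 glycolysis genes 11 were lower and 4 higher, among them ENO2 (-0.68), PFKL (-0.44) and LDHA (-0.41) lower and SLC2A3 (0.77) higher. Of 35 nuclear-encoded respiratory chain genes 20 were lower and 2 higher, at a median difference of -0.10, and 10 were lower without KMS-12-PE. Genes of tRNA charging and the ATF4 response gave 9 lower and 7 higher of 30, near the 20% and 25% of all genes, with a median difference of -0.019. Among them PHGDH (-0.48) and SLC1A5 (-0.41) were lower and ASNS (0.43), CARS (0.39) and WARS (0.36) higher. Chemokine and receptor genes gave 7 higher and 9 lower of 18. Among them CXCR3 was lower (-1.11), with a fall from a mean of 75.11 to 48.62 TPM in MM1R and a rise from 46.34 to 58.79 TPM in KMS-12-BM. The plot of list medians shows the cell cycle lists at 1 end and the MAF and ER lists at the other.

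**Figure D5:**
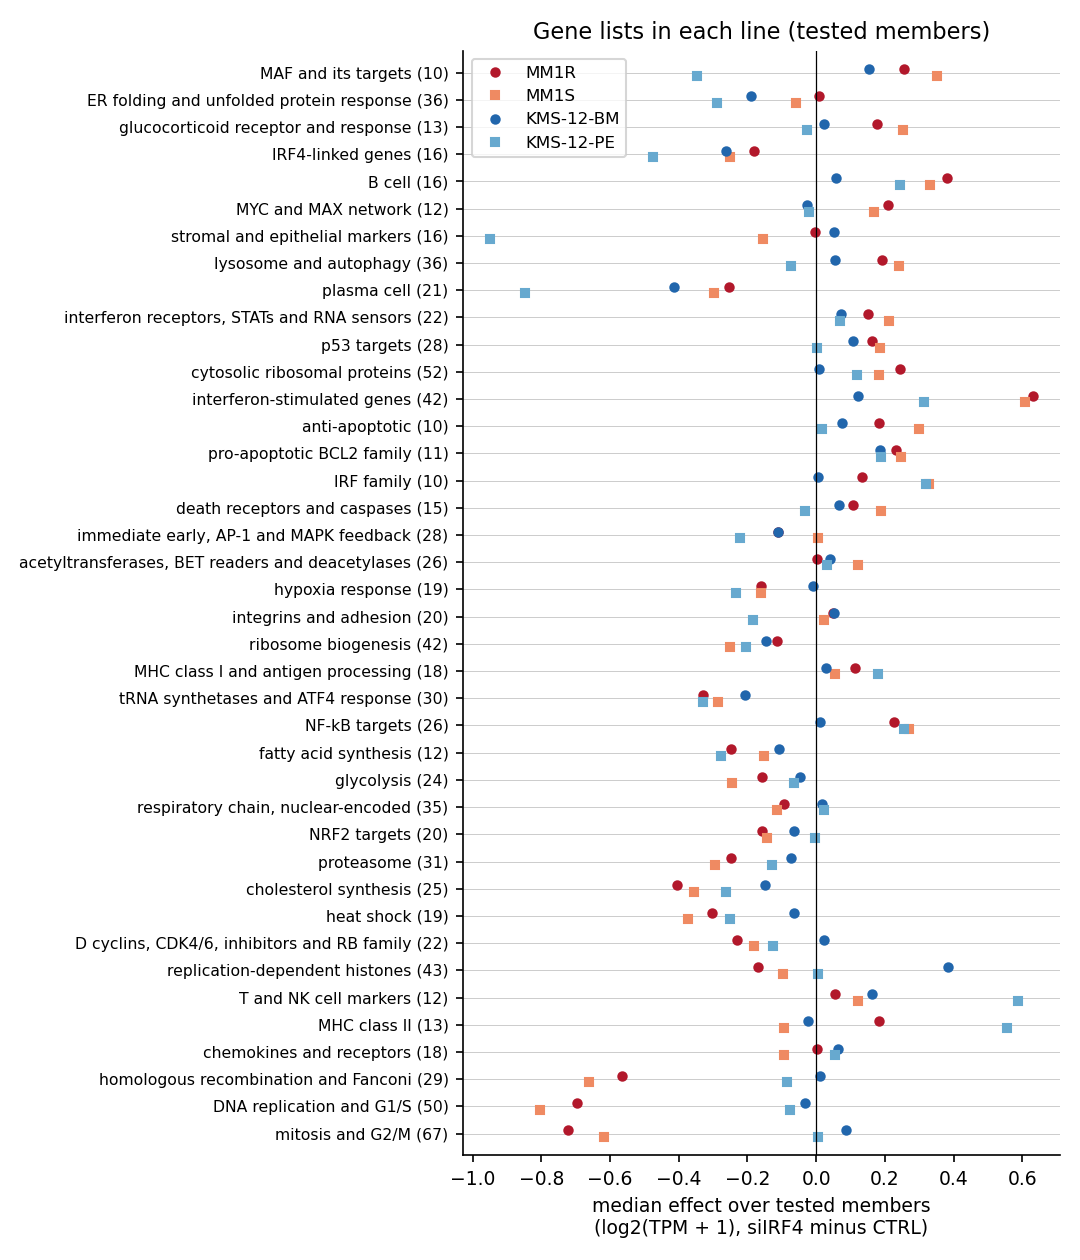
Median effect of siIRF4 on log2(TPM + 1) over the tested members of each gene list with at least 10 of them, in MM1R, MM1S, KMS-12-BM and KMS-12-PE, ordered by the median difference of effects, with the number of members in brackets. Mitosis and G2/M genes sit at -0.72 and -0.62 in the MM1 lines and near 0 in the KMS-12 lines. Stromal and plasma cell lists sit lowest in KMS-12-PE.

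Markers of other cell types moved with siIRF4 in several lines. Summed over the 17 stromal and epithelial markers, MM1R held 261 to 277 TPM in CTRL and 87.2 to 117 TPM in siIRF4. The MM1R sums were mostly VIM, at 245.1, 248 and 260.3 TPM in CTRL and 75.86, 102.4 and 106.6 TPM in siIRF4. MM1S held 284 to 384 TPM and 217 to 255 TPM. The same sums were 277 to 287 and 259 to 270 TPM for KMS-12-BM, and 315 to 359 and 189 to 220 TPM for KMS-12-PE. Of the 16 tested markers 5 were called higher and 2 lower, against 25% and 20% of all genes. The stromal gene DCN stood at a mean of 31.95 TPM in KMS-12-PE CTRL and 7.028 TPM with siIRF4. For MM1S its mean was 19.20 TPM in CTRL and 27.97 TPM with siIRF4. Its means were below 0.1 TPM in MM1R and KMS-12-BM. The higher level in MM1S was not shared by COL1A1, KRT5 or VIM. COL1A1 had MM1S means of 39.1 TPM without and 22.2 TPM with siIRF4, and KRT5 50.9 and 34.5 TPM. VIM held 143.7, 133.2 and 129.3 TPM in MM1S CTRL, then 64.38, 56.97 and 68.94 TPM. Of 3 tested myeloid markers 2 were higher. S100A9 (2.09) went from a mean of 24.79 to 94.69 TPM in MM1R and from 99.46 to 23.95 TPM in cells of KMS-12-PE. Its MM1S groups overlapped, at 64.91, 64.01 and 97.21 TPM in CTRL and 98.62, 104.7 and 45.3 TPM in siIRF4. In KMS-12-BM it stood at or below 0.4791 TPM. The markers CD14, LYZ and CSF1R stayed below 1 TPM in every library. None of 12 tested T and NK cell markers was higher and 4 were lower, with CD3D at or below 0.434 TPM in every library but CD3E at up to 29 TPM. No erythroid marker was called. The part of these markers in the differences was not tested, and fewer cells of a type cannot be told apart from less RNA per cell.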

How the data were processed

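RNA-seq was done on 24 libraries, 3 for each of 8 groups. The authors deposited 1 table of TPM values, whose columns each sum to 1000000. FastQC, MultiQC, STAR, featureCounts and the hg19 build appear, without versions or roles, in the submitters' processing notes. Strandedness is not given in the sources used here, so overlapping and antisense genes cannot be told apart. Of 25370 rows, 28 whose symbols had become dates and 1 without a name were left out, and 25341 were kept. Whole reads could be recovered from the TPM values for 20484 genes (within 0.02 reads, in at least 6 libraries), which gave 17.3 to 27.4 M reads per library. Replicates differed by more than sampling noise, with a chi-square per degree of freedom of at least 2.1.

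Genes with at least 1 TPM in at least 3 libraries (15113) were put on log2(TPM + 1), which understates the change of low genes. The 8 group means were fitted with limma 3.58.1 (R 4.3.3; trended, robust prior) on all 24 libraries, and adjusted p-values (Benjamini-Hochberg, 0.05) were taken over all 15113 genes. The interaction contrast gave the difference of effects. Tables and plots used Python 3.11.15 with numpy 2.4.6, pandas 2.3.3 and matplotlib 3.10.9. The fit was tested on simulated data. Alternatives were a pseudocount of 0.1, other filters on low values, median-of-ratios scaling, a prior without trend, a replicate block, voom on the recovered reads, genes under 2% of the other pair left out, and each line and library left out.

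Named were IRF4, the 12 highest and 12 lowest called genes with both lines of each pair on the same side and at least 5 TPM in the higher condition of every line, 5 and 5 genes under 1 TPM in 1 pair, up to 3 and 3 members of each of 42 lists by p, and members of the regulator, plasma cell, apoptosis and marker lists. Other genes were named after their values were seen. The members and lists were chosen with earlier results of these data known. Promoters came from a RefSeq table (GRCh38.p14), in which 11091 of the tested genes were matched, too few to describe all called genes. Results for a few genes are not reported here.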

Additional observations from a re-analysis of the deposited data

Results flagged for a closer look

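The difference of effects between the MM1 and KMS-12 lines passed its test in limma for 6792 genes. Among the genes named by rank, 7 also differed by more than 1 on the log2 scale between the effects of the lines KMS-12-BM and KMS-12-PE, so that the mean of that pair stands for neither line. KMS-12-BM minus KMS-12-PE was 1.42 for TNFRSF17 (adjusted p = 6.36e-10), with the larger fall in KMS-12-PE. It was 2.55 for CRYBB1 (adjusted p = 3.78e-06), 2.53 for ITGB7 (adjusted p = 0.000208), 1.17 for CCR2 (adjusted p = 1.35e-06) and 1.14 for SCNN1G (adjusted p = 0.00128). CRYBB1, ITGB7 and SCNN1G are abundant in the MM1 lines, and the trace of MM1 transcripts was 0.106% to 0.119% in KMS-12-PE siIRF4 against 0.694% to 1.14% in CTRL. In KMS-12-BM siIRF4 it was 1.06% in replicate 1, against 0.301% to 0.421% in CTRL, and in that library ITGB7 (186 TPM), CRYBB1 (15 TPM) and SCNN1G (1.392 TPM) were highest of the line. Its part in these values was not tested. CCL5 (-1.57, adjusted p = 4.13e-08) and SMIM24 (-1.41, adjusted p = 2.54e-05) rose more in KMS-12-PE than in KMS-12-BM.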

How the results depend on the processing

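Over 36 alternatives, 67.5% (without KMS-12-PE) to 98% (prior without trend) of the called genes remained called in the same direction, and leaving out single libraries gave 3525 to 3941 genes higher and 2876 to 3123 lower. All 67 G2/M genes and all 50 replication genes were called lower under each alternative. Of 246 called genes among the 277 named, 159 kept direction and call throughout. Median-of-ratios scaling moved the median of all genes by -0.0118 and the share of calls that were higher from 55.5% to 53%. Same-numbered libraries did not deviate together (r from -0.088 to 0.086 over 12 pairs, 2 of which correlated best with their own number), so the numbers were not taken as pairs, and with the replicate block 93.7% of calls remained and within-MM1 calls were 183. Within-MM1 calls (374) were also 171 at a pseudocount of 0.1, 579 with voom and 215 to 446 with single libraries left out. Genes called with a difference of 1 or more numbered 498 higher and 129 lower at a pseudocount of 0.1, 108 higher at a mean of at least 5 TPM, 550 and 179 with voom, and 338 and 112 without KMS-12-BM. Calls for the KMS-12 mean were 2555 without KMS-12-PE. The difference for IRF4 was -0.1244 without MM1R, 0.0001137 without KMS-12-PE and 0.1516 to 0.2255 with single libraries left out, failing its test without any of 5 of them (MM1R CTRL 2, MM1R siIRF4 3, MM1S CTRL 2, MM1S siIRF4 1, KMS-12-BM siIRF4 1). Without MM1R the sign turned for IRF2BPL (0.0122) and HLA-DOB (-0.1254). Without KMS-12-BM it turned for SGK1 (-0.2605), CD58 (0.111), CCND2 (0.3459), VIM (0.4056), KLF2 (0.5887) and SLAMF7 (0.4458). Without KMS-12-PE it turned for IRF8 (0.01894), POU2AF1 (-0.00389), SQSTM1 (0.0258), RELB (0.02653), ODC1 (-0.02851), COL3A1 (-0.1057), STAG2 (-0.1809) and BIRC3 (0.3394). The cause was not tested.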
